A study of Mus musculus with 36 samples.

Results

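The collagen genes are all protein-coding genes of the count table whose symbol has the form Col, a type number, the letter a and a chain number. Of 55416 genes in the table, 44 met that rule. Of these 44, 35 reached 1 CPM (counts scaled to a fixed library total) in at least 12 of the 36 libraries and entered the tests. Values are CPM scaled by edgeR's TMM factors unless said otherwise, and a gene was called changed at FDR < 0.05 over all 13995 genes tested.

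The libraries came from C2C12 myotubes, fused and differentiated muscle cells of an immortalised mouse myoblast line that holds a single lineage. All 36 cultures were transfected with a locked nucleic acid (LNA) antisense oligonucleotide on day 3 of differentiation and used 24 h later, on day 4. Their differentiation medium held 2% horse serum. The LNA was either a negative control or one against *Tug1*, a long non-coding RNA, and the *Tug1* LNA gave the *Tug1* knockdown (KD). Each LNA was combined with no stimulation (Rest), with harvest at the end of 3 h of electrical pulse stimulation (EPS 0h), or with harvest after 3 h of EPS and 3 h of recovery (EPS 3h). EPS used 2 ms pulses of 13 V at 66 Hz, with 5 s of pulses alternating with 5 s of pause. By the study's methods, Rest plates also held electrodes, left unconnected, for as long. The same Rest group of each LNA served both EPS times, with no unstimulated group for the recovery. Between EPS 3h and Rest, stimulation and the time of harvest therefore cannot be told apart. Each of the 6 groups held 6 libraries, which the study's methods describe as triplicate wells from a pair of independent experiments, so p-values measure the spread between wells and experiments of this line.

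Collagens are secreted or membrane-bound proteins built from alpha chains that wind into a triple helix. Fibrillar collagens form the banded fibres that carry tension around muscle fibres, type IV chains form the sheet of the basement membrane, and type VI chains form beaded filaments that link the basement membrane to the interstitial matrix. Fibril-associated collagens with interrupted helices (FACITs) decorate the fibres. Transmembrane collagens stay anchored in the cell surface, and multiplexins sit in or beside basement membranes. In muscle most of this matrix is known to be made by fibroblasts, but myoblasts and myotubes also transcribe many collagen genes.

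Library totals lay between 17005079 and 24181167 counts. The targeted RNA fell in the *Tug1* KD libraries, from 48.4 ± 6.78 to 27.2 ± 3.69 CPM at Rest (SD, n = 6 each; log2FC -0.83, edgeR FDR = 9.15e-04), with log2FC of -0.57 directly after EPS and -0.51 after recovery. In 5 of 6 groups the first principal component set replicates 1 to 3 apart from replicates 4 to 6, so values within each of these sets are given where they matter; the labels do not say what the numbers stand for. All 13 myotube markers examined were detected, with a summed level of 13226 to 18844 CPM per library, and 0 of the 13 were called in any of the 3 *Tug1* KD comparisons or in either EPS comparison in control myotubes. In *Tug1* KD myotubes 1 was higher and 2 were lower at EPS 0h, and 1 was higher and 3 were lower at EPS 3h. Of the 6 fibroblast markers, *Thy1* was under 0.1 CPM, while *Dcn*, *Cd34* and *Pdgfra* averaged 127, 34.7 and 17.7 CPM in control myotubes at Rest. Of the 4 macrophage markers, *Adgre1* was under 0.1 CPM and *Cd68* averaged 3.83 CPM.

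At rest the collagen pool was mainly fibrillar. Collagen genes took 0.872% ± 0.0703 (SD, n = 6) of all counts in control myotubes at Rest, and fibrillar genes took 0.640% ± 0.0638. The 4 genes *Col3a1*, *Col1a2*, *Col5a1* and *Col5a2* made up 65.2% of the collagen counts in that group. Per kilobase of exon, *Col3a1*, the only chain of type III collagen, had the highest level in control myotubes at Rest, at 235 CPM per kb. *Col5a1* and *Col1a2* followed at 99.7 and 98.1 CPM per kb, then *Col5a2* at 74.7 and *Col1a1* at 62.5. *Col5a1* and *Col1a2* are close neighbours whose order rests on a difference smaller than the spread of either gene between libraries.

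Outside the fibrillar class, the basement membrane chains *Col4a1* and *Col4a2* stood at 56.3 and 49.6 CPM per kb and the beaded-filament chain *Col6a1* at 55.7 CPM per kb in control myotubes at Rest. The FACIT *Col12a1*, which is found in muscle and tendon matrix, reached 19.5 CPM per kb. The multiplexin *Col18a1*, the precursor of endostatin, reached 13.2 and the short-chain network gene *Col8a1* reached 8.47 CPM per kb. All 4 transmembrane genes, *Col13a1*, *Col17a1*, *Col23a1* and *Col25a1*, lay under 1 CPM per kb. *Col2a1* and *Col10a1*, which are known from cartilage, stood at 0.0329 and 0.107 CPM per kb, and *Col4a4* at 0.0301.

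**Figure D1:**
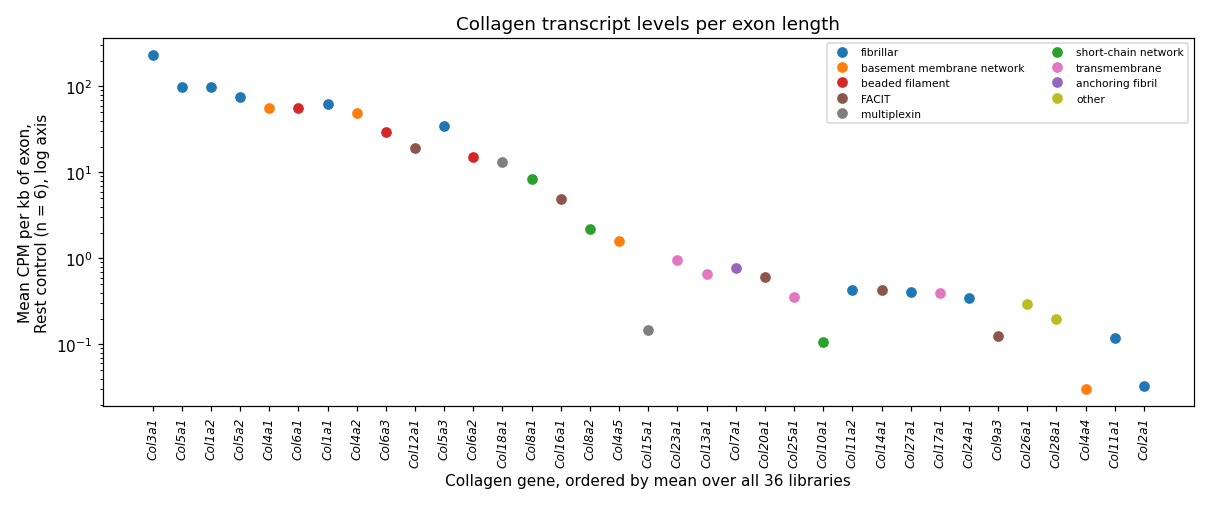
Mean level of each of the 35 tested collagen genes in control myotubes at Rest (n = 6 libraries), in CPM per kb of exon on a log axis, ordered by the mean over all 36 libraries and coloured by class. Fibrillar genes hold the first 4 places, led by *Col3a1* at 235 CPM per kb, while the transmembrane genes all lie under 1.

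The genes with the highest level in their class are given by their range over libraries. *Col3a1* lay between 1899 and 2893 CPM in control myotubes at Rest, with a median of 2407, and between 1388 and 2128 at EPS 3h. *Col4a1* lay between 396 and 460.2 CPM at Rest, with a median of 414, and between 298 and 528 at EPS 3h. *Col6a3*, a chain of the beaded filaments that are lost in collagen VI muscular dystrophies, lay between 284 and 408 CPM at Rest, with a median of 377, and between 195 and 370.1 at EPS 3h. Of these genes only *Col3a1* and *Col6a3* were called at EPS 3h, and their groups overlapped. *Col12a1* lay between 216 and 424 CPM at Rest and between 220.4 and 419 at EPS 3h in control myotubes. *Col8a1* lay between 57.0 and 77.3 CPM at Rest and between 50.6 and 68.2 at EPS 3h. *Col7a1*, the anchoring-fibril collagen, lay between 6.49 and 10.0 CPM at Rest and between 6.90 and 14.9 at EPS 3h. These last genes were called in no comparison.

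The comparison of *Tug1* KD with control myotubes asked how loss of *Tug1* changes the transcriptome of the myotube. Within the collagens, 3 genes rose with *Tug1* KD at Rest and 0 fell: the transmembrane genes *Col25a1* and *Col13a1* and the basement membrane gene *Col4a5*. That is 8.57% of the 35 members, where 5.54% of all genes tested were called higher and 4.47% lower, so the share of members is near the background. The same 3 genes rose in both stimulated states. There, 8.25% (EPS 0h) and 6.38% (EPS 3h) of all genes were called higher. No collagen was called lower in either of those comparisons, where 6.07% and 5.11% of all genes were. All 3 genes had every *Tug1* KD library above every control library at Rest (4.34% of all genes; 0 members and 3.73% of all genes had every library below). The members with such a gap numbered 2 above and 0 below at EPS 0h (4.83% and 3.11% of all genes) and 1 above and 0 below at EPS 3h (2.68% and 1.94%). The median log2FC of the 35 members was -0.02 at Rest, 0.13 at EPS 0h and 0.12 at EPS 3h, beside -0.03, -0.00 and -0.01 over all genes.

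The promoters of these 3 genes are printed so that their proximal regions can be compared. Each is the 250 bases before the transcript start in RefSeq's promoter table for GRCm38.p6, which held 35 of the 44 collagens, read 5′ to 3′ on the gene's strand. Each window matched its own chromosome of GRCm39, the build of the counts, exactly once on the strand of the gene. Other chromosomes and the other strand were not searched, and the coordinates are on GRCm39. The 7 motifs searched on both strands were the TATA box as the letters TATAAA, the CCAAT box as CCAAT, the GC box as the letters GGGCGG, the AP-1 site as the letters TGANTCA, the core of the cAMP response element as the letters TGACG, the E-box as the letters CANNTG and the MEF2 site as the letters TATTTTTA. Capitals mark their matches.
*Col25a1* (chr3:129974244-129974493, plus strand): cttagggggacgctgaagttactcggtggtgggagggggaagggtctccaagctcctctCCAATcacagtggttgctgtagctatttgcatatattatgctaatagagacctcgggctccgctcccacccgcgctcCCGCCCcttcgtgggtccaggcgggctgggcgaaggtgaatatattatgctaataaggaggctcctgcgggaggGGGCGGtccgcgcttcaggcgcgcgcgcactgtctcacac
*Col13a1* (chr10:61814888-61815137, minus strand): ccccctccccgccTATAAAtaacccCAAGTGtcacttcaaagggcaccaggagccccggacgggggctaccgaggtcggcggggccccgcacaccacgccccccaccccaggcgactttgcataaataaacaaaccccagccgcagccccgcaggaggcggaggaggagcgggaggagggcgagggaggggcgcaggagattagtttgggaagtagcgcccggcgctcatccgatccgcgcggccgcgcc
*Col4a5* (chrX:140258165-140258414, plus strand): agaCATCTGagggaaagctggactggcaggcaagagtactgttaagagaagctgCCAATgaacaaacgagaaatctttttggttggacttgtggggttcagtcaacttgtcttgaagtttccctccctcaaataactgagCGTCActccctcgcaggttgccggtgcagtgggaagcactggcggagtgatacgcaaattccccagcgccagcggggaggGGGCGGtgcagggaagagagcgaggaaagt

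The RefSeq start of *Col25a1* lies 49344 bases inside the gene as given in the GENCODE annotation of GRCm39, so its window belongs to a later start. Those of *Col13a1* and *Col4a5* lie 53 and 61 bases inside their genes in that annotation. *Col25a1* and *Col4a5* held both a CCAAT and a GC box, found in 33.8% and 32.7% of all 32817 windows of the table. *Col13a1* held neither, and held a TATA box 237 to 232 bases before its start. A TATA box was found in 12.4% of all windows and an E-box in 66.2%. These matches are letters in a window, not bound sites.

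*Col25a1* encodes a transmembrane collagen that muscle needs for motor innervation. In control myotubes at Rest it lay between 1.50 and 8.90 CPM with a median of 4.34, and in *Tug1* KD myotubes between 9.35 and 28.4 CPM with a median of 19.5. Every *Tug1* KD library at Rest was above every control library. The rise was 4.18-fold (log2FC 2.06, SE 0.510, edgeR FDR = 0.00549). After EPS, the control libraries spanned 1.02 to 7.40 CPM at EPS 0h and 1.22 to 5.87 CPM at EPS 3h, while the *Tug1* KD libraries spanned 5.08 to 20.6 and 5.20 to 21.4 CPM. These groups overlapped. The log2FC was 1.70 directly after EPS (FDR = 0.0214) and 1.85 after recovery (FDR = 0.0159). *Col25a1* differed between the replicate sets in every group, but its rise at Rest was called in each set alone. Replicates 1 to 3 gave a log2FC of 1.90 (FDR = 4.17e-07), and replicates 4 to 6 gave 2.55 (FDR = 3.88e-07).

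*Col13a1* encodes a transmembrane collagen that is concentrated at the neuromuscular junction. At Rest it lay between 1.51 and 4.50 CPM in control myotubes (median 3.25) and between 6.29 and 11.5 CPM in *Tug1* KD myotubes (median 7.68), with no overlap. The rise was 2.69-fold (log2FC 1.43, SE 0.229, edgeR FDR = 3.14e-05). It was 2.56-fold at EPS 0h, from a range of 1.52 to 2.83 CPM to one of 3.62 to 6.40, and 2.36-fold at EPS 3h, from 1.71 to 3.93 CPM to 5.72 to 8.74. In all 3 states the *Tug1* KD libraries of *Col13a1* stood above the control libraries.

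*Col4a5* encodes a type IV chain that is altered in Alport syndrome. At Rest it lay between 13.3 and 16.6 CPM in control myotubes (median 14.4) and between 18.4 and 21.2 CPM in *Tug1* KD myotubes (median 20.0), again with no overlap. The rise was smaller than for the transmembrane genes, at 1.34-fold (log2FC 0.42, SE 0.0944, edgeR FDR = 0.00237), and was 1.40-fold at both EPS 0h and EPS 3h. Replicates 1 to 3 alone gave a log2FC of 0.32 at Rest (FDR = 0.126), and replicates 4 to 6 alone gave 0.52 (FDR = 0.0102).

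The other transmembrane genes did not pass the main test. *Col23a1* stood at 5.67 ± 2.14 CPM in control and 8.34 ± 2.93 CPM in *Tug1* KD myotubes at Rest (SD, n = 6 each), with log2FC of 0.56, 0.63 and 0.54 in the 3 states (edgeR FDR = 0.337, 0.221 and 0.329). With the replicate number as a block *Col23a1* was called in all 3 states (FDR = 6.26e-04 at Rest, 2.88e-04 at EPS 0h, 7.93e-04 at EPS 3h), although at Rest the numbers did not deviate together in every pair. With the replicate set as a block *Col23a1* was called in all 3 states as well (edgeR FDR = 5.13e-04 at Rest and 2.32e-04 at EPS 0h). The block on replicate number also called *Col10a1* at EPS 0h, so that 5 collagens were higher there in place of 3. *Col17a1*, a hemidesmosome collagen, stood at 2.37 ± 0.542 CPM in control and 2.13 ± 0.440 CPM in *Tug1* KD myotubes at Rest (SD, n = 6 each).

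**Figure D2:**
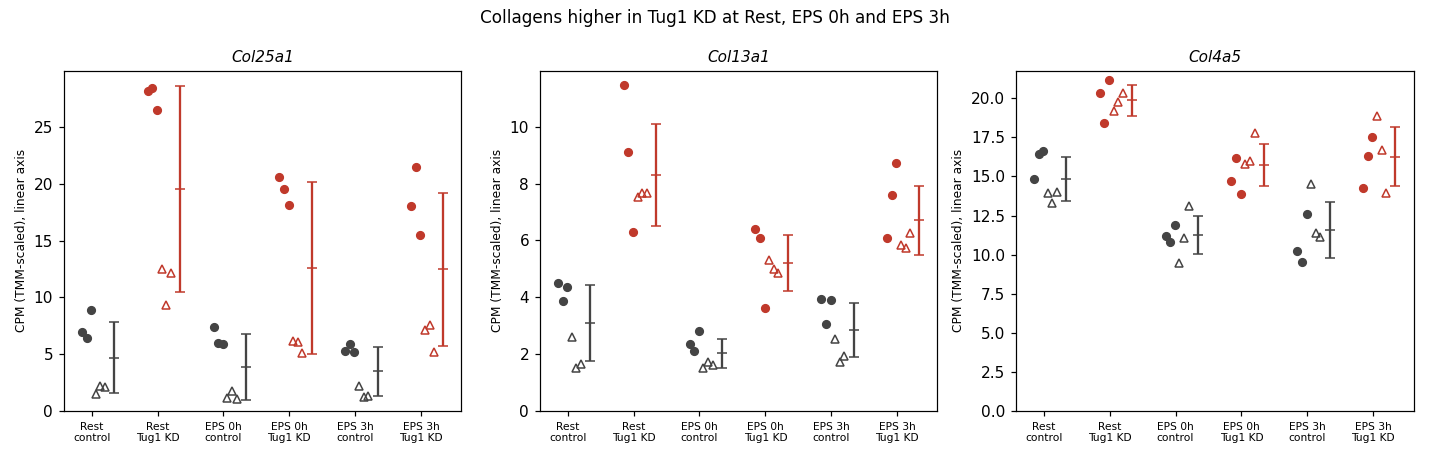
TMM-scaled CPM of *Col25a1*, *Col13a1* and *Col4a5* in each of the 36 libraries on linear axes from 0, with control myotubes in grey and *Tug1* KD myotubes in red. Filled circles are replicates 1 to 3, open triangles replicates 4 to 6, and the bar beside each group is the mean ± SD of n = 6; at Rest all *Tug1* KD points of each gene lie above all control points, and the *Col25a1* sets differ within every group.

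Marker levels in the same libraries are given beside these rises. The summed level of the 5 markers of undifferentiated myoblasts ranged from 270.4 to 307 CPM in control and from 237 to 279 CPM in *Tug1* KD myotubes at Rest, with 1 of the 5 called lower. Of the 6 markers of cycling cells, 0 were called at Rest, and their sums ranged from 129 to 171 CPM in control and from 109 to 146 CPM in *Tug1* KD myotubes. Of the 6 fibroblast markers, 4 were tested and 1 was called lower at Rest, with sums of 170.4 to 193 CPM in control and 136 to 221 CPM in *Tug1* KD myotubes. The 4 macrophage markers summed to 3.65 to 6.80 CPM in control and to 1.67 to 2.86 CPM in *Tug1* KD myotubes at Rest, and the 1 tested was called lower. The 4 endothelial markers summed to 1.51 to 2.51 and 0.806 to 2.19 CPM, with 0 of the 3 tested called. The part of these markers in the collagen results was not tested, and in bulk RNA fewer cells of a type and less RNA per cell cannot be told apart.

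The width of the interval on the difference between *Tug1* KD and control myotubes varied among the collagens that were not called. At Rest the log2FC of *Col3a1* was -0.11 (95% interval -0.38 to 0.16), that of *Col1a2* -0.07 (-0.31 to 0.17) and that of *Col4a1* -0.03 (-0.28 to 0.22). None passed the edgeR test. The interval was wider for *Col5a3*, an abundant gene, at -0.21 (-0.67 to 0.25), and for the low genes *Col10a1* at 0.15 (-0.49 to 0.79) and *Col11a2* at 0.57 (-0.02 to 1.16).

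The comparison of EPS 0h with Rest in control myotubes asked what the contraction-like stimulus itself had changed by its end. In this comparison 3 collagens rose, *Col10a1*, *Col15a1* and *Col4a4*, and 8 fell: *Col5a3*, *Col26a1*, *Col16a1*, *Col18a1*, *Col8a2*, *Col13a1*, *Col1a1* and *Col4a5*. Over all genes, 20.5% were called higher and 18.4% lower, so the 8.57% of members that rose is below that background and the 22.9% that fell is near it. Every EPS library was above every Rest library for 2 members (11.8% of all genes) and below for 4 (10.1%). With the replicate number as a block, 15 collagens were lower in place of 8, the added genes being *Col3a1*, *Col4a2*, *Col6a2*, *Col6a3*, *Col11a1*, *Col17a1* and *Col23a1*. With the replicate set as a block 11 were lower, *Col3a1*, *Col11a1* and *Col23a1* being added, and *Col4a2*, *Col6a2*, *Col6a3* and *Col17a1* did not pass (FDR = 0.0720, 0.0560, 0.161 and 0.0676). The edgeR log2FC of the added genes *Col3a1* and *Col4a2* in the fit without a block were -0.29 and -0.26.

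At EPS 3h in control myotubes 8 collagens rose, the 3 above with *Col2a1*, *Col9a3*, *Col20a1*, *Col17a1* and *Col11a2*, and 9 fell: *Col5a3*, *Col26a1*, *Col8a2*, *Col16a1*, *Col18a1*, *Col1a1*, *Col3a1*, *Col6a3* and *Col4a5*. That is 22.9% and 25.7% of the members, where 26.1% and 25.9% of all genes were called. Every EPS library was above every Rest library for 5 members (15.2% of all genes) and below for 2 (13.8%). Both EPS comparisons in control myotubes used the same Rest libraries, so their values are set side by side and are not independent. Scaling by library size alone shifted the median log2FC of all genes by -0.17 at EPS 3h in control myotubes, and under it 7 collagens were higher and 13 lower. With the replicate number as a block *Col25a1*, *Col4a2*, *Col6a1* and *Col6a2* were called lower in addition, of which the replicate set as a block called *Col25a1* and *Col6a1*.

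Members were kept by a minimum of 1 CPM in 12 libraries, so a gene low in all Rest libraries could enter only through EPS libraries. That was so for *Col2a1*, *Col10a1* and *Col4a4*, which reached 1 CPM in 0 of the 12 Rest libraries, and nearly so for *Col9a3*, in 1 of 12. *Col15a1* reached it in 4 of 12. For these genes the filter and the rise are not independent. Neither their FDR nor their place in the counts of rises is independent support.

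The promoters of the 3 collagens that rose in every EPS comparison are printed in the same way, with the same motifs in capitals.
*Col15a1* (chr4:47207762-47208011, plus strand): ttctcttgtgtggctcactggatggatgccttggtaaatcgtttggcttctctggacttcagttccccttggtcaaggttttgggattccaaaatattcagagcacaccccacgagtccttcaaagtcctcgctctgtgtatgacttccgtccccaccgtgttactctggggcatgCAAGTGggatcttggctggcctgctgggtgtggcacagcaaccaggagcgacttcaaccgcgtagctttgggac
*Col10a1* (chr10:34265727-34265976, plus strand): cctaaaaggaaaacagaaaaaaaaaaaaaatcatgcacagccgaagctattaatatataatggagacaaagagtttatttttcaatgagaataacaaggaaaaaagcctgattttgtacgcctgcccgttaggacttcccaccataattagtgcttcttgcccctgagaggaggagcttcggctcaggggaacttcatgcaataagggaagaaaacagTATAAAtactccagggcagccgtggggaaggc
*Col4a4* (chr1:82564571-82564820, minus strand): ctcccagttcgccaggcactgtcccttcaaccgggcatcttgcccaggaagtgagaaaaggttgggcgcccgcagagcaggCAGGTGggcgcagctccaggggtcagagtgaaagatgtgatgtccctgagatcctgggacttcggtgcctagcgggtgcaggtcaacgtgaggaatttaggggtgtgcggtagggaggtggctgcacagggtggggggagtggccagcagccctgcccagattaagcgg

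The starts used lie inside the genes as given in the GENCODE annotation of GRCm39, by 430 bases (*Col15a1*), 230 (*Col4a4*) and 6 (*Col10a1*). The *Col15a1* window therefore lies wholly inside its annotated gene, and the *Col4a4* window mostly so. *Col10a1* held a TATA box 32 to 27 bases before its start and no other match. *Col15a1* and *Col4a4* each held an E-box and no other match. None of the 6 windows printed held the AP-1 letters, which 6.75% of all windows did.

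*Col15a1* showed the largest rise of the collagens tested at EPS 3h. It encodes a multiplexin of the basement membrane zone of muscle fibres and capillaries. In control myotubes it lay between 0.470 and 1.62 CPM at Rest (median 1.07), between 3.36 and 4.68 CPM at EPS 0h (median 4.21) and between 8.23 and 23.2 CPM at EPS 3h (median 17.9). No library of one state overlapped another, and the rise was 4.00-fold at EPS 0h (log2FC 2.00, SE 0.251, edgeR FDR = 8.25e-08) and 16.3-fold at EPS 3h (log2FC 4.03, SE 0.250, FDR = 2.12e-15). *Col18a1*, the other multiplexin, went the other way. It lay between 77.8 and 111 CPM at Rest (median 91.5), between 37.2 and 74.0 at EPS 0h (median 55.5) and between 32.1 and 77.9 at EPS 3h (median 69.6). Its log2FC were -0.73 (FDR = 0.00912) and -0.61 (FDR = 0.0211). *Col18a1* overlaps *Slc19a1* on the opposite strand, and the strand setting of the counting is not given in the sources used here.

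*Col10a1* encodes the short-chain collagen of hypertrophic cartilage. It lay between 0.185 and 0.425 CPM at Rest in control myotubes (median 0.385), between 0.731 and 2.35 CPM at EPS 0h (median 1.48) and between 2.84 and 5.01 CPM at EPS 3h (median 3.42), again with no overlap between states. The rise was 4.13-fold at EPS 0h (log2FC 2.05, SE 0.280, edgeR FDR = 4.15e-07) and 11.1-fold at EPS 3h (log2FC 3.47, SE 0.268, FDR = 4.52e-13). *Col10a1* lies inside the span of *Nt5dc1*, which is transcribed from the opposite strand. The other short-chain genes did not rise. *Col8a2*, a collagen of the corneal endothelial basement membrane, lay between 7.12 and 14.6 CPM at Rest (median 11.2), between 3.90 and 10.4 at EPS 0h (median 7.09) and between 5.25 and 8.07 at EPS 3h (median 7.26), with log2FC of -0.63 (FDR = 0.0229) and -0.68 (FDR = 0.0101).

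Among the type IV chains the responses were of opposite sign. *Col4a4*, a chain of the kidney glomerular network, lay between 0.139 and 0.523 CPM at Rest in control myotubes (median 0.336), between 0.439 and 1.56 CPM at EPS 0h (median 1.06) and between 1.42 and 2.60 CPM at EPS 3h (median 1.63). EPS 3h was apart from Rest and EPS 0h overlapped it. The rise was 2.98-fold (log2FC 1.57, SE 0.339, edgeR FDR = 3.42e-04) and then 5.10-fold (log2FC 2.35, SE 0.327, FDR = 2.10e-07). *Col4a5* fell by 0.40 on the log2 scale directly after EPS and fell by 0.36 after recovery (FDR = 0.00107 and 0.00184), from a mean of 14.9 CPM to 11.3 and 11.6. *Col4a1* and *Col4a2* did not pass.

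Of the fibrillar genes, *Col5a3* fell most. It encodes the third alpha chain of type V collagen, a regulator of fibre diameter. It lay between 182 and 273 CPM at Rest in control myotubes (median 255), between 60.2 and 132 CPM at EPS 0h (median 87.7) and between 56.1 and 186 CPM at EPS 3h (median 91.1). EPS 0h was below Rest in every library, and at EPS 3h replicate 3 alone reached into the Rest range. The fall was 2.62-fold at EPS 0h (log2FC -1.39, SE 0.239, edgeR FDR = 1.71e-05) and 2.28-fold at EPS 3h (log2FC -1.19, SE 0.237, FDR = 6.90e-05). At EPS 0h the log2FC was -1.92 within replicates 1 to 3 and -0.93 within replicates 4 to 6. The main type V chains *Col5a1* and *Col5a2* were called in none of the 7 comparisons.

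*Col1a1*, the major chain of type I collagen, lay between 375 and 446 CPM at Rest (median 411), between 230.4 and 310.3 CPM at EPS 0h (median 289) and between 221 and 359.7 CPM at EPS 3h (median 267). Both EPS groups were below Rest in every library. The fall was 1.47-fold and 1.51-fold (log2FC -0.56 and -0.60, edgeR FDR = 1.62e-04 and 3.51e-05). Its partner chain *Col1a2* had log2FC of -0.01 at EPS 0h (95% interval -0.25 to 0.22). *Col3a1* fell by 0.42 on the log2 scale at EPS 3h (FDR = 0.0103).

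*Col2a1*, the main collagen of cartilage, was at most 0.523 CPM at Rest in control myotubes (lowest 0.0470, median 0.326) and lay between 1.18 and 2.84 CPM at EPS 3h (median 1.63), with no overlap. The highest count of *Col2a1* in any library was 60. The rise was 6.11-fold (log2FC 2.61, SE 0.386, edgeR FDR = 6.48e-07), and at EPS 0h its level, 0.414 ± 0.207 CPM (SD, n = 6), did not pass. *Col2a1* reached 1 CPM in 6 of 6 libraries of each EPS 3h group and in 0 of the others. It passed the filter only through the state in which it was high, so the FDR is not independent support for the rise. *Col9a3*, a FACIT chain that coats type II fibres, went from 0.571 ± 0.180 to 2.75 ± 1.46 CPM at EPS 3h (SD, n = 6 each; log2FC 2.25, FDR = 2.19e-05). *Col11a2*, a fibrillar chain found with type II collagen, went from 3.20 ± 0.846 to 5.40 ± 2.09 CPM (SD, n = 6 each; log2FC 0.76, FDR = 0.0332).

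Of the remaining falls, *Col26a1* lay between 1.19 and 3.47 CPM at Rest (median 2.39), between 0.713 and 1.60 CPM at EPS 0h (median 1.17) and between 0.916 and 2.90 CPM at EPS 3h (median 1.22), with log2FC of -1.03 and -0.71 (edgeR FDR = 0.00477 and 0.0373). These ranges overlapped, and within neither set alone was the EPS 3h fall called. *Col16a1*, a FACIT, lay between 30.6 and 39.1 CPM at Rest (median 35.9), between 13.7 and 30.7 CPM at EPS 0h (median 20.4) and between 13.9 and 30.5 CPM at EPS 3h (median 24.9). At EPS 0h its log2FC was -0.75 (FDR = 0.00496). Replicates 1 to 3 alone gave -1.39 (FDR = 2.50e-04), while replicates 4 to 6 alone gave -0.25 (FDR = 0.105).

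Replicate 3 of the EPS 3h control group stood apart from its group for several collagens. Without it, a choice made after seeing the data, 6 collagens were higher and 11 lower at EPS 3h: *Col11a2* and *Col17a1* were no longer called, and *Col6a1* and *Col6a2* were. The log2FC of *Col5a3* became -1.44 and that of *Col20a1*, a FACIT, 0.93 in place of 1.28. Replicate 3 of the EPS 3h *Tug1* KD group was likewise the highest of its group for *Col5a3*, *Col27a1* and *Col17a1*. It stood at 162.2, 15.12 and 7.185 CPM, with the others at most 115.8, 10.01 and 5.197 CPM. No fit without that library was made.

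**Figure D3:**
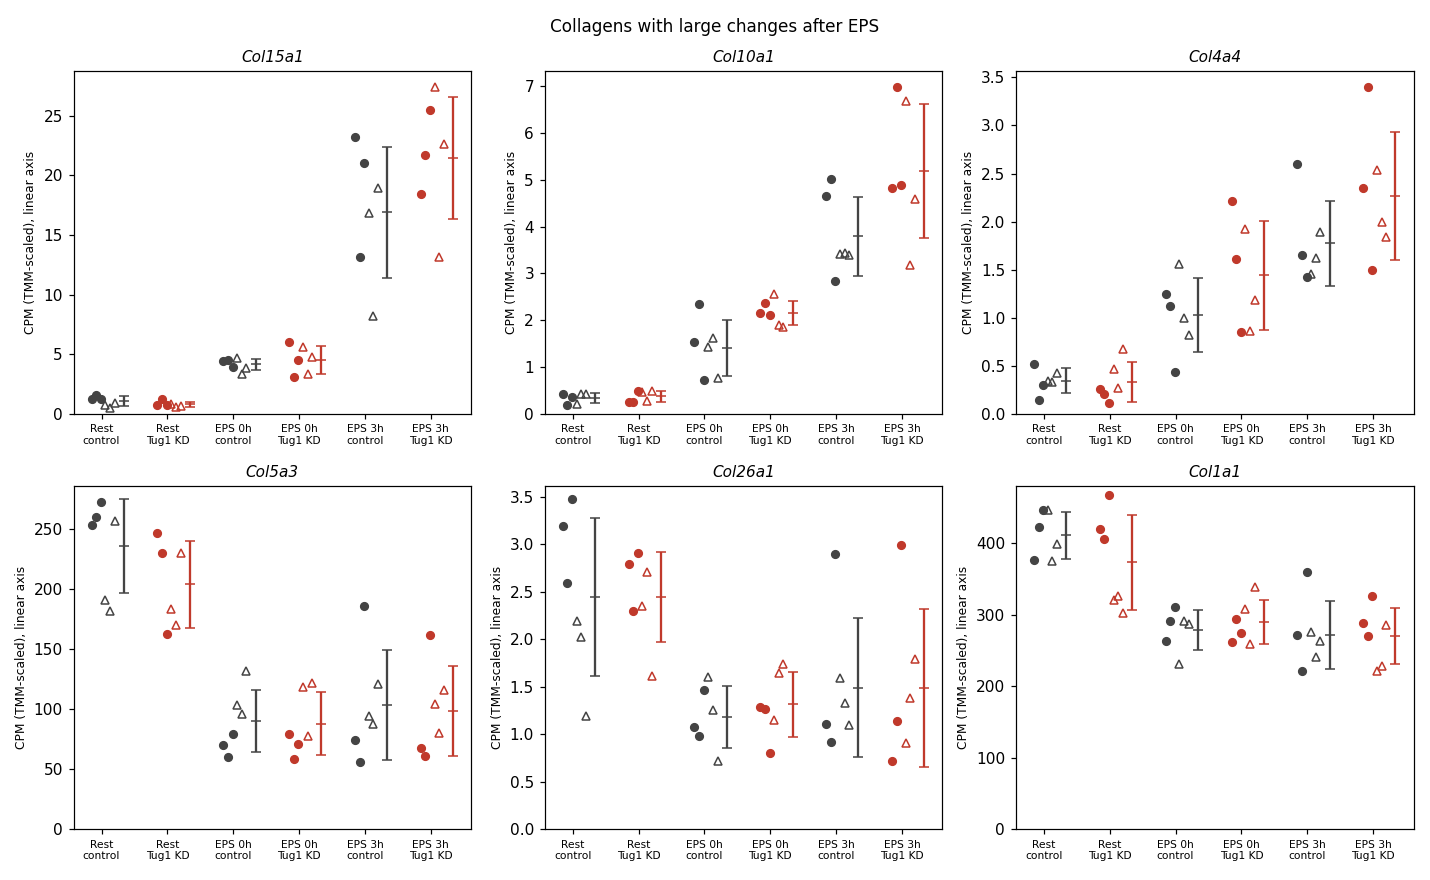
TMM-scaled CPM of 6 collagens in each of the 36 libraries on linear axes from 0, drawn as for the *Tug1* KD genes (grey, control; red, *Tug1* KD; circles, replicates 1 to 3; triangles, replicates 4 to 6; bars, mean ± SD of n = 6). *Col15a1*, *Col10a1* and *Col4a4* climb from Rest to EPS 3h under both LNAs, and *Col5a3*, *Col26a1* and *Col1a1* are lower in both EPS states.

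Levels of cell type markers moved with these changes. In control myotubes the summed level of 4 endothelial markers ranged from 1.51 to 2.51 CPM at Rest. It ranged from 3.68 to 5.20 at EPS 0h and from 5.93 to 14.1 at EPS 3h. Of the 3 tested, 2 were called higher at EPS 0h and 3 at EPS 3h. *Kdr* and *Pecam1* were at most 0.416 and 0.644 CPM at Rest, so they passed the filter only through EPS libraries. Their calls are not independent support for a rise. The 5 myoblast markers summed to 270.4 to 307 CPM at Rest, to 277 to 303 at EPS 0h, with 2 called higher and 1 lower, and to 172 to 231 at EPS 3h, with 3 called lower. The 6 cycling-cell markers summed to 129 to 171 CPM at Rest, 143 to 184 at EPS 0h and 115 to 173 at EPS 3h, with *Mki67* called higher and *Ccnb1* lower in both EPS states. The 6 fibroblast markers summed to 170.4 to 193 CPM at Rest, to 149 to 224 at EPS 0h and to 150.0 to 248 at EPS 3h, with 1 of the 4 tested, *Pdgfra*, called lower in both. The 4 macrophage markers summed to 3.65 to 6.80 CPM at Rest, to 3.22 to 4.37 at EPS 0h and to 3.47 to 5.04 at EPS 3h, and the 1 tested, *Cd68*, was called lower in both. The part of these markers in the collagen results was not tested.

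In *Tug1* KD myotubes, EPS 0h raised 3 collagens and lowered 8, and these were the same genes as in control myotubes. Over all genes 24.4% were called higher and 21.2% lower in that comparison. Every EPS library was above every Rest library for 3 members (13.0% of all genes) and below for 4 (9.52%). With the replicate number as a block *Col3a1*, *Col23a1* and *Col25a1* were called lower in addition. At EPS 3h in *Tug1* KD myotubes 9 collagens rose and 8 fell, beside 26.2% and 25.9% of all genes. Every EPS library was above every Rest library for 4 members (15.9% of all genes) and below for 3 (14.0%). Of the calls, 7 in each direction were also called in control myotubes. Scaling by library size alone gave 8 higher and 12 lower. *Col15a1* went from 0.800 ± 0.225 CPM at Rest to 4.53 ± 1.18 and 21.5 ± 5.12 CPM (SD, n = 6 each), and *Col10a1* from 0.372 ± 0.121 to 2.16 ± 0.264 and 5.19 ± 1.43 CPM. Beside these, the myotube marker *Ttn* was called higher in both EPS states in *Tug1* KD myotubes. *Tnnt3* and *Myh2* were called lower at EPS 0h, and *Myh1*, *Myh2* and *Myog* at EPS 3h. The summed endothelial markers ranged from 0.806 to 2.19 CPM at Rest, from 3.96 to 5.00 at EPS 0h and from 9.09 to 12.5 at EPS 3h. In each EPS state 3 of the 3 tested were called higher. *Kdr* and *Pecam1* were at most 0.447 and 0.470 CPM at Rest here, so their calls are again not independent of the filter. Of the 5 myoblast markers 2 were called higher at EPS 0h and 3 lower at EPS 3h. The part of these markers was not tested.

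Whether *Tug1* KD altered the response of a collagen to EPS was tested as an interaction. None of the 35 members passed in either edgeR interaction, beside 0% of all genes for EPS 0h and 0.00715% (1 gene) for EPS 3h. None had an unadjusted p under 0.05 either, beside 2.32% and 3.07% of all genes. The smallest unadjusted p at EPS 3h was that of *Col15a1* (0.0512 in edgeR), whose response was larger by 0.72 on the log2 scale in *Tug1* KD myotubes (SE 0.355). Over the 35 members the differences ranged from -0.36 to 0.50 for EPS 0h and from -0.37 to 0.72 for EPS 3h. A difference of this size in a low gene was therefore not resolved by 6 libraries a group.

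**Figure D4:**
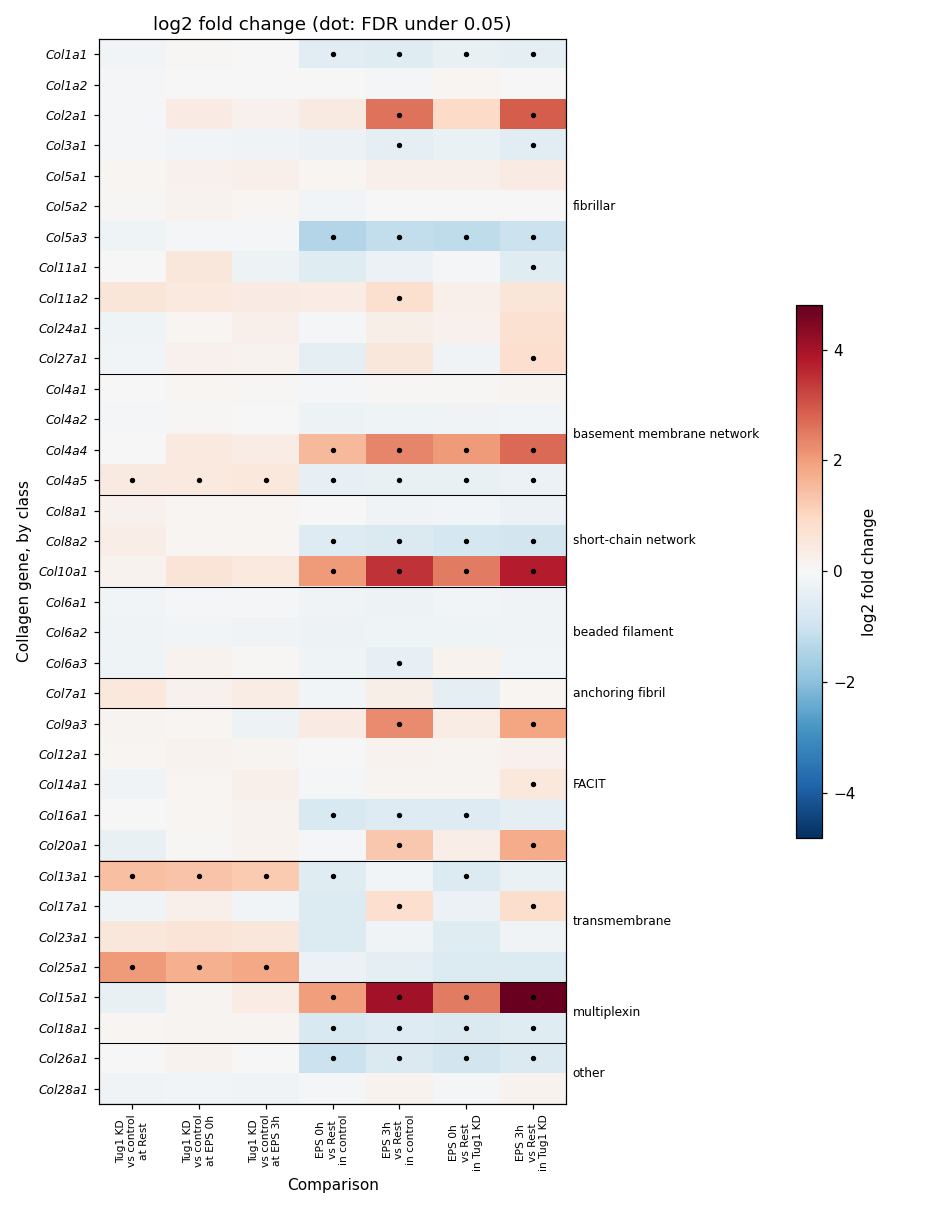
log2 fold change of the 35 tested collagen genes (rows, grouped by class) in the 7 comparisons (columns), red for higher and blue for lower in the first-named group, with a dot where edgeR FDR < 0.05. The first 3 columns carry dots at *Col25a1*, *Col13a1* and *Col4a5*, and the EPS columns carry dots on both red and blue cells within some classes.

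Chains of one trimer or fibril did not always keep their ratio. *Col3a1* and *Col1a1*, which are chains of different collagens, were paired by fibril. For 6 pairs of chains the log2 ratio of counts was compared in the 7 comparisons by exact two-sided permutation of 6 against 6 libraries, with Benjamini-Hochberg adjustment over the 42 tests. *Col4a1* and *Col4a2*, the paired basement membrane chains, lie next to each other on opposite strands of chromosome 8 and overlap by 355 bases. Their log2 ratio in control myotubes lay between 0.20 and 0.27 at Rest (median 0.24), between 0.29 and 0.62 at EPS 0h (median 0.41) and between 0.36 and 0.62 at EPS 3h (median 0.48). Both EPS groups were above Rest in every library. The rises of 0.20 and 0.25 each had an exact permutation p of 0.00216, the smallest that 924 splits allow, and an adjusted p of 0.0455. In *Tug1* KD myotubes the differences were 0.21 and 0.26 (exact permutation, adjusted p = 0.0682 and 0.0606), and with libraries exchanged only within sets the adjusted exact permutation p values were 0.0700 and 0.0262.

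The log2 ratio of *Col1a1* to *Col1a2*, the chains of type I collagen, lay between -1.83 and -1.33 at Rest in control myotubes and between -2.57 and -1.77 at EPS 0h. The difference from Rest was -0.55 (EPS 0h) and -0.53 (EPS 3h; exact permutation, adjusted p = 0.106 each). The replicate sets differed, and when libraries were exchanged only within sets, all 4 EPS comparisons had an adjusted exact permutation p of 0.0262. For the type VI chains the ratio of *Col6a1* to *Col6a2* stayed between 0.85 and 1.19 in all 36 libraries, and no comparison of it passed. The ratios of *Col5a1* to *Col5a2* and *Col6a3* to *Col6a1* passed in no comparison under either scheme. That of *Col3a1* to *Col1a1* passed in none when all libraries were exchanged, and within sets it passed at EPS 0h in control myotubes (0.27; exact permutation, adjusted p = 0.0262). No *Tug1* KD comparison of any ratio passed.

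**Figure D5:**
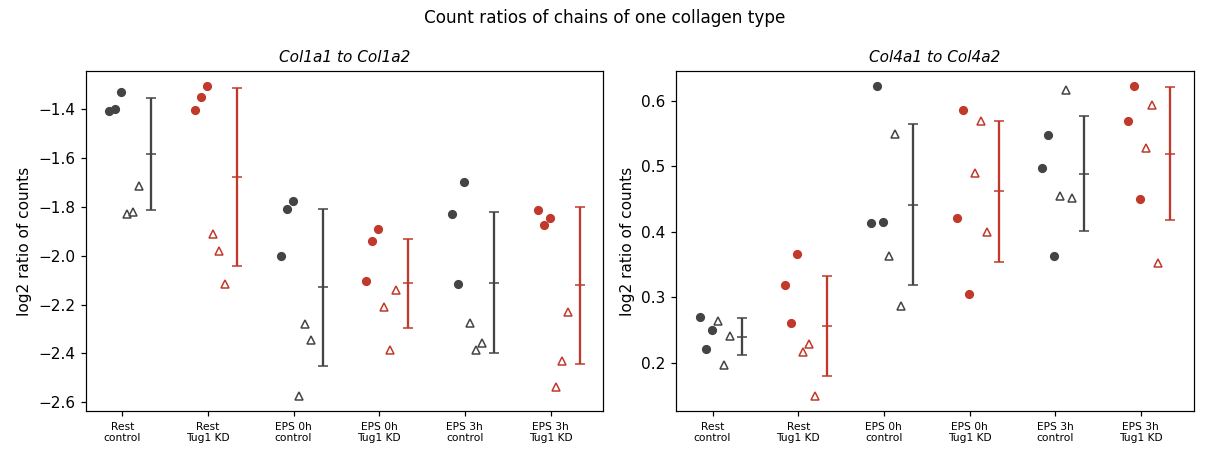
log2 ratio of counts of *Col1a1* to *Col1a2* and of *Col4a1* to *Col4a2* in each of the 36 libraries (grey, control; red, *Tug1* KD; circles, replicates 1 to 3; triangles, replicates 4 to 6; bars, mean ± SD of n = 6). The *Col1a1* ratio is lower and the *Col4a1* ratio higher in both EPS states than at Rest, and the sets are apart for *Col1a1*.

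The share of counts on collagens in control myotubes was 0.872% ± 0.0703 at Rest, 0.730% ± 0.130 directly after EPS and 0.684% ± 0.117 after recovery (SD, n = 6 each). These are descriptions with no test. Directly after EPS the share was 0.614% in replicates 1 to 3, against 0.845% in replicates 4 to 6. In *Tug1* KD myotubes at Rest the share was 0.833% ± 0.0544.

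The machinery that makes, processes and removes collagen was examined in 6 lists. Their counts stand beside the shares of all genes called, which were 5.54% higher and 4.47% lower with *Tug1* KD at Rest and 26.1% and 25.9% at EPS 3h in control myotubes. Of 21 tested genes of folding and modification, 0 were called with *Tug1* KD at Rest, and at EPS 3h in control myotubes 5 rose and 4 fell, both near or under the share of all genes. *P4ha1*, a catalytic subunit of prolyl 4-hydroxylase, rose most, from 305 ± 30.8 to 842 ± 119.6 CPM (SD, n = 6 each; log2FC 1.47, edgeR FDR = 5.63e-15). *Creb3l1*, a membrane-bound transcription factor of the secretory pathway, fell most, by 0.50 on the log2 scale (FDR = 0.00192). *Serpinh1*, the collagen-specific chaperone HSP47, which was picked after its values were seen, rose from 1657 ± 92.2 to 4259 ± 565 CPM (SD, n = 6 each; log2FC 1.36, FDR = 1.21e-12).

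Of 10 tested genes of propeptide processing and cross-linking, 1 rose with *Tug1* KD at Rest, *Adamts14*, a procollagen N-proteinase (log2FC 0.55, edgeR FDR = 7.57e-04). Its log2FC with *Tug1* KD was 0.72 and 0.59 in the stimulated states, both called. At EPS 3h in control myotubes 1 of these genes rose, *Adamts2*, the main procollagen N-proteinase (log2FC 0.98, FDR = 6.68e-09), and 3 fell, with *Loxl2*, a cross-linking oxidase, falling by 0.62 on the log2 scale (FDR = 5.77e-06).

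Of 9 tested genes of degradation and uptake, 0 were called with *Tug1* KD at Rest, and at EPS 3h 3 rose and 1 fell (26.1% and 25.9% of all genes). *Mmp9*, a gelatinase, went from 1.38 ± 0.724 to 9.78 ± 2.41 CPM (SD, n = 6 each; log2FC 2.82, edgeR FDR = 9.16e-10), and *Mmp14*, a membrane-bound collagenase, fell by 0.94 on the log2 scale (FDR = 1.55e-04). Of 5 tested collagen receptors, 0 were called with *Tug1* KD at Rest, and at EPS 3h 1 rose and 2 fell. *Itgb1*, the shared integrin beta chain, rose (log2FC 0.28, FDR = 0.0166) and *Itga10* fell by 0.64 on the log2 scale (FDR = 9.13e-05).

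Of 11 tested fibril-binding matrix genes, 0 were called with *Tug1* KD at Rest, and at EPS 3h 4 rose and 3 fell. *Tnxb*, which encodes tenascin X, lay between 0 and 0.235 CPM at Rest and between 5.59 and 11.5 CPM at EPS 3h (edgeR FDR = 4.79e-16). These Rest libraries were all under 1 CPM, so for *Tnxb* the filter and the rise are not independent. Its FDR is not independent support. *Fbn1*, the microfibril gene fibrillin-1, fell by 0.88 on the log2 scale (FDR = 7.06e-07). Of 10 basement membrane partners, 0 were called with *Tug1* KD at Rest, and at EPS 3h 0 rose and 4 fell (26.1% and 25.9% of all genes). *Hspg2*, the gene of perlecan, fell most, by 1.03 on the log2 scale, from a range of 786 to 1099 CPM to one of 267 to 577 CPM (FDR = 2.26e-08). With *Tug1* KD, 2 of the 10 partners were called higher at EPS 0h and 1 at EPS 3h, where 8.25% and 6.38% of all genes were. At EPS 0h 1 of the 5 receptors and 1 of the 11 fibril-binding genes were also called higher with *Tug1* KD. None of the genes in these 3 lists was called lower with *Tug1* KD in any state.

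The 9 collagens under the filter were *Col4a3*, *Col4a6*, *Col6a4*, *Col6a5*, *Col6a6*, *Col9a1*, *Col9a2*, *Col19a1* and *Col22a1*. Their highest levels in any library were 1.26 CPM for *Col4a3*, 1.70 for *Col4a6*, 0.805 for *Col6a4*, 1.51 for *Col6a5*, 0.217 for *Col6a6*, 0.597 for *Col9a1*, 0.259 for *Col9a2*, 2.24 for *Col19a1* and 1.17 for *Col22a1*. *Col22a1*, the collagen of the myotendinous junction, had 64 counts in all over the 6 control libraries at Rest and 58 at EPS 3h.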

How the data were processed

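The deposited table held raw read counts per gene, made by the authors from 150-bp paired, stranded poly-A libraries; per the submitters' notes reads were trimmed with fastp 0.14.1, checked with FastQC 0.11.7 and aligned with STAR 2.5 to GRCm39. The counter and its strand setting are not given in the sources used here. Gene starts, spans and exon lengths were taken from the GENCODE annotation of GRCm39, not from the Ensembl release that the paper names. Exon length merged the exons of all transcripts of a gene, so levels per kb and their order depend on that choice. Library totals set the precision of low genes, and rows without a gene name held 0.0327% of counts. Genes with 1 CPM or more in at least 12 libraries (13995) were fitted with edgeR 4.0.16 in R 4.3.3 (TMM, robust quasi-likelihood F-test, all 6 groups in 1 fit), with Benjamini-Hochberg FDR over all genes. The authors used limma-voom. limma 3.58.1, DESeq2 1.42.0, other scalings, no filter, blocks and each replicate set alone were tried as alternatives, and the fits were tested on simulated data. Same-numbered libraries deviated together in all 6 pairs (correlation over 0.1) in 5 of 7 comparisons, the exceptions being *Tug1* KD at Rest (lowest -0.117) and EPS 3h in *Tug1* KD (lowest 0.062). No 2 libraries of a group were alike within sampling noise. The 95% intervals are the log2FC with 1.96 SE on each side. Values per library are given for the highest gene of each class, for genes called in any *Tug1* KD comparison and for the 3 largest rises and falls in each EPS comparison in control myotubes; from each list of related genes the largest rise and fall at Rest (*Tug1* KD) and EPS 3h are named. The collagen members, classes and gene lists were chosen with earlier results of these data known. No protein sequences were used.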

Additional observations from a re-analysis of the deposited data

Results flagged for a closer look

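Each tested collagen was examined in each group of 6 libraries for a library far from the rest, by Dixon's ratio of gap to range at its 95% critical value. Of 210 gene and group combinations, 10 were marked, close to the 1 in 20 that chance gives. *Col2a1* stood at 0.791 CPM in EPS 0h control replicate 1 (others at most 0.392) and at 0.173 CPM in EPS 0h *Tug1* KD replicate 5 (others at least 0.517). *Col5a1* stood at 1006 CPM in Rest control replicate 6 (others at most 873). *Col6a1* and *Col6a2* stood at 349.8 and 163 CPM in EPS 0h *Tug1* KD replicate 6 (others at most 266 and 126). *Col14a1* stood at 4.43 CPM in EPS 3h control replicate 6 (others at most 3.41). *Col26a1* and *Col27a1* stood at 2.90 and 16.1 CPM in EPS 3h control replicate 3 (others at most 1.59 and 8.08). *Col27a1* stood at 5.93 CPM in EPS 0h *Tug1* KD replicate 1 (others at most 4.37). *Col28a1* stood at 0.734 CPM in EPS 0h control replicate 5 (others at least 1.07).

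Among the collagens under the filter, 2 of 9 had every EPS 3h control library above every Rest control library, as had 15.2% of all genes tested. *Col6a5* averaged 0.973 CPM at EPS 3h and was at most 0.0503 CPM at Rest, and *Col9a1* averaged 0.0707 CPM at EPS 3h and had 0 counts at Rest, with 8 counts in all at EPS 3h.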

How the results depend on the processing

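Of 65 calls of a collagen in a comparison, 41 were also made under all 10 other fits that gave a value, 24 were not past the threshold under at least 1 of them, and 0 changed sign. Without the filter *Col25a1* was not called at EPS 0h or EPS 3h with *Tug1* KD. With the replicate block 5 collagens were higher with *Tug1* KD at EPS 0h, and 15 were lower at EPS 0h in control myotubes; the block with the set of replicates also gave 5 at the first. Library size alone gave 13 lower at EPS 0h in control myotubes. Replicates 4 to 6 alone gave 5 lower there, and 6 higher and 1 lower with *Tug1* KD at Rest, where replicates 1 to 3 alone gave 1 lower. With *Tug1* KD at Rest, where 5 of 6 same-numbered pairs deviated together, the block added *Col23a1*, and 3 of 6 libraries correlated best with their own number. At EPS 3h in *Tug1* KD, also with 5 of 6 pairs, the block gave 12 higher and 12 lower, and 3 of 6 libraries did so. In the EPS comparisons in control myotubes all 6 pairs deviated together, yet only 2 of 6 (EPS 0h) and 3 of 6 (EPS 3h) libraries did so. By this measure the numbers paired those libraries no better. At an FDR < 0.01 with a log2FC beyond 1 in size, the collagens lower in control myotubes numbered 2 (EPS 0h) and 1 (EPS 3h), and those in *Tug1* KD myotubes 1 in each. Without EPS 3h control replicate 3, an alternative chosen after seeing the data, 6 were higher and 11 lower at EPS 3h in control myotubes, and 3 and 0 with *Tug1* KD. The cause of these differences was not tested.

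With permutation within replicate sets, the ratio of *Col1a1* to *Col1a2* passed with EPS in control (-0.55 at EPS 0h, -0.53 at EPS 3h) and in *Tug1* KD myotubes (-0.43 and -0.44), that of *Col3a1* to *Col1a1* at EPS 0h in control myotubes (0.27), and that of *Col4a1* to *Col4a2* at EPS 3h in *Tug1* KD myotubes (0.26). In replicates 1 to 3 and 4 to 6 alone, the difference in *Col5a1* to *Col5a2* was -0.19 and 0.25 with *Tug1* KD at Rest and -0.05 and 0.46 at EPS 0h in control myotubes, and that in *Col6a3* to *Col6a1* was -0.30 and 0.17 with *Tug1* KD at Rest and 0.50 and 0.08 at EPS 0h in *Tug1* KD myotubes. By the sum of scaled CPM in place of raw counts, the collagen level at EPS 3h was 0.882 times that at Rest in control myotubes, where the share of counts was 0.785 times.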

Other observations

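Several collagen genes lie beside another on the same chromosome, and the neighbours did not all move alike after EPS. Values in this part for genes under the filter come from the edgeR fit without a filter. *Col4a3* and *Col4a4*, which overlap by 158 bases on chromosome 1, were both higher at EPS 3h in control myotubes (*Col4a3* log2FC 1.72, FDR = 0.00468, on 17 counts in all at Rest and 55 at EPS 3h). *Col4a5* and *Col4a6*, which lie 1.28 kb apart on the X chromosome, went in opposite directions, with *Col4a6* higher (log2FC 1.67, FDR = 0.00139, 30 and 90 counts in all) and *Col4a5* lower. *Col19a1*, 5.01 kb from *Col9a1*, was higher as well (log2FC 1.29, FDR = 0.00128, 55 and 130 counts in all). *Col3a1* fell at EPS 3h while *Col5a2*, 16.7 kb away on the opposite strand, did not pass.

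Collagen genes are long, with a median span of 114 kb for the 35 tested members beside 24.4 kb for all tested genes in the annotation. The 3 genes that rose with *Tug1* KD spanned 468 kb (*Col25a1*), 214 kb (*Col4a5*) and 141 kb (*Col13a1*). *Col23a1* and *Col24a1*, which the main fit called in no comparison, spanned 294 and 259.5 kb. The 3 genes that rose in every EPS comparison spanned 139 kb (*Col4a4*), 106 kb (*Col15a1*) and 7.11 kb (*Col10a1*, the shortest of the 35). No test of span was made.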
